A study of Mus musculus with 10 samples.

Results

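Eph receptors are receptor tyrosine kinases, and ephrins are their membrane-bound ligands, so that signalling takes place where neighbouring cells touch. The EphA receptors mainly bind the ephrin-A ligands, which are held in the membrane by a lipid (GPI) anchor, and contact can send signals into both the receptor-bearing and the ligand-bearing cell. The pathway is known for repulsive axon guidance and for keeping cell populations apart at tissue boundaries, among them neural crest and mesenchymal cells of the head. In the chick retina, homeobox genes of the HMX family restrict where *EphA3* is expressed.

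The 10 genes described here are the EphA receptors *Epha2*, *Epha3*, *Epha4*, *Epha5* and *Epha7* and the ephrin-A ligands *Efna1*, *Efna2*, *Efna3*, *Efna4* and *Efna5*, chosen by name and found through their Ensembl identifiers among the 53465 genes of the count table. All 10 were among the 16426 genes that passed the filter on low counts and were tested. Forming pinna prominences, the early outer ear, were dissected from embryos at stage E14.5 and sequenced as bulk RNA. There were 5 wild types (WT) and 5 embryos labelled knock-in, of mEC1dup/dup genotype, a CRISPR knock-in that carries an additional copy of the mouse enhancer mEC1 on each allele. The mice were on a C57BL/6J background, no further allele or treatment was given for either group, and each library came from an independent embryo. The study's methods describe replicates as siblings of separate litters, and which libraries share a litter is not given in the sources used here. In whole tissue, fewer cells of a type and less RNA per cell cannot be told apart.

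The libraries held 17461544 to 18462073 counts. *Hmx1*, the target of the enhancer, had 376 to 526 counts in WT and 976 to 1356 in mEC1dup/dup, a log2 fold change of 1.31 with a standard error (SE) of 0.10, every mEC1dup/dup library lying above every WT library. The covariate for the embryonic globin share, used below, also took *Hmx1* to 0.34 (SE 0.38, adjusted p = 0.921 in edgeR). The 8 mesenchymal markers, which define most of this tissue, were present in every library and summed to 10100 to 16200 CPM (read counts scaled to a common library size by TMM) in WT and 10600 to 12200 CPM in mEC1dup/dup. Among them *Prrx1* (0.07) and *Pdgfra* (0.08) had small log2 fold changes, and *Lum* was called lower (-0.30, adjusted p = 0.0074 in edgeR). *Twist1* (0.15), *Twist2* (-0.18), *Col1a1* (-0.35), *Col3a1* (-0.28) and *Dcn* (-0.29) were not called. Other features also differed between the libraries beside the genotype label. *Xist*, transcribed in female cells, had 2 to 5 counts in the WT libraries and 12812, 19040, 18165, 2096 and 0 counts in mEC1dup/dup replicates 1 to 5, and embryonic globins made up 18.4% to 23.3% of globin counts in WT and 32.5% to 35.6% in mEC1dup/dup. The summed epithelial markers reached 890 to 1550 CPM in WT and 722 to 928 CPM in mEC1dup/dup with 3 of 8 called lower, those of the suprabasal epidermis 153 to 434 and 56.6 to 77.7 CPM with 4 of 5 called lower. Of 8 muscle markers 1 was called lower, *Ckm* (-2.25, adjusted p = 0.00126 in edgeR), with sums of 1260 to 1980 and 992 to 1510 CPM. Of 7 chondrocyte markers 1 was called lower, *Snorc* (-1.32, adjusted p = 0.0229 in edgeR), with sums of 5360 to 8690 and 2340 to 6990 CPM, the lowest in mEC1dup/dup replicate 1. Neuronal markers summed to 144 to 717 and 171 to 367 CPM, the highest in WT replicate 4, and none of 6 was called by edgeR or had an unadjusted p under 0.05. No gene of these marker lists was at 0 in any library. Their part in the values of the Eph and ephrin genes was not tested.

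Among the 10 genes, *Efna4* was the single one called different between the genotypes, and it was higher in mEC1dup/dup. Calls required an adjusted p up to 0.05 (Benjamini-Hochberg over all tested genes) in edgeR's quasi-likelihood test, and a mean log2 CPM no lower than 1. By this rule 2.64% of all tested genes were called, 0.834% as higher and 1.81% as lower. Of the ligands 1 of 5 was thus called, and none of the 5 receptors. The receptors *Epha4* and *Epha7* had an unadjusted p under 0.05, and neither DESeq2 nor limma-voom called a receptor. A fit with the replicate number as a block, described below, called *Epha4* (adjusted p = 0.0122). Before adjustment, 5 of the 10 genes had a p under 0.05, 4 higher and 1 lower, where 7.1% of all tested genes were higher and 9.08% lower at that p (16.2% in all). The fold change was positive in 7 of the 10 genes, as in 48.8% of all tested genes, and the groups did not overlap in 1 of the 10, as in 5.07% of all tested genes. The median log2 fold change of the 10 genes was 0.09, against -0.00415 for all tested genes, and no member moved by more than 0.28 in size.

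**Figure D1:**
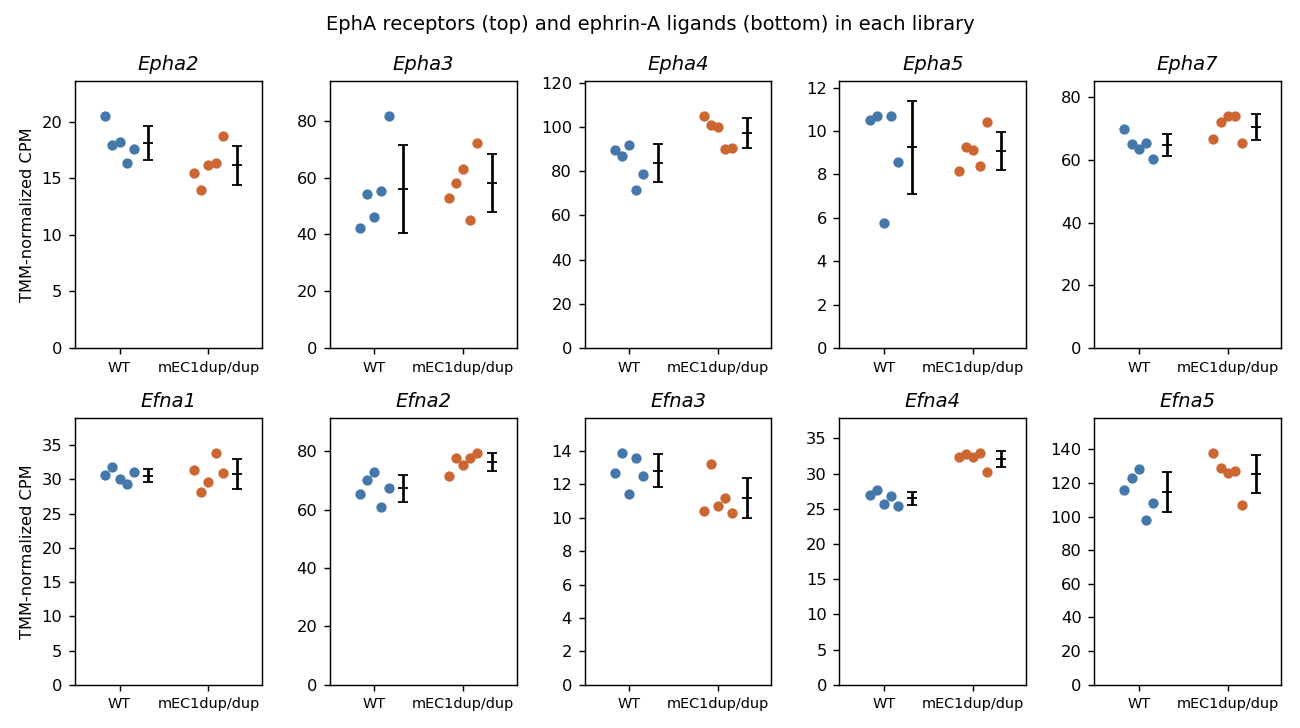
Normalized level (TMM-normalized CPM, linear axes from 0) of each EphA receptor (top) and ephrin-A ligand (bottom) in every library. Points are embryos in the order of replicates 1 to 5, and the black mark is the mean with its SD (n = 5). Only for *Efna4* do the groups stand apart, with WT at 25.4 to 27.7 CPM and mEC1dup/dup at 30.2 to 33.0 CPM.

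*Efna4* encodes ephrin-A4, a GPI-anchored ligand that in the skull is known for a role at the boundary between neural crest and mesoderm in the coronal suture. The gene (ENSMUSG00000028040) occupies bases 89240695 to 89245373 of chromosome 3 (GRCm39, minus strand). WT replicates 1 to 5 held 465, 501, 458, 484 and 458 *Efna4* counts, and mEC1dup/dup replicates 1 to 5 held 567, 596, 595, 612 and 558. After scaling, this was 26.9, 27.7, 25.7, 26.8 and 25.4 CPM in WT and 32.4, 32.8, 32.3, 33.0 and 30.2 CPM in mEC1dup/dup. Every mEC1dup/dup embryo was above every WT embryo, which holds for 2.33% of all tested genes in this direction. The means were 26.5 ± 0.958 CPM (SD, n = 5) and 32.2 ± 1.12 CPM (SD, n = 5). *Efna4* rose by 21.4% on the linear scale, a log2 fold change of 0.28 (SE 0.05, 95% interval 0.17 to 0.38, adjusted p = 0.0113 in edgeR). Its p held rank 100 among all tested genes. Among the 10 genes its spread between embryos was the narrowest in mEC1dup/dup and second to that of *Efna1* in WT, with coefficients of variation of 3.5% and 3.62%.

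The call for *Efna4* was kept in each of the 10 fits that left out one embryo, with log2 fold changes from 0.26 to 0.30 and adjusted p from 0.0129 to 0.0408. It was lost when *Xist* was added as a covariate (0.20, standard error 0.07, adjusted p = 0.404 in edgeR). It was also lost with only the 2 mEC1dup/dup libraries under 5000 *Xist* counts (0.26, standard error 0.07, adjusted p = 0.244 in edgeR). These were at 33.0 and 30.2 CPM, and the highest WT library was at 27.7 CPM. The part of *Xist* in the difference was not tested. Of these 2, called low-*Xist* below, replicate 5 with 0 *Xist* counts was as low as WT, and replicate 4 with 2096 counts was above it. With a covariate for the embryonic globin share, the log2 fold change was 0.22 with a standard error of 0.22 (adjusted p = 0.916 in edgeR). That share does not overlap between the groups, so its part and that of the genotype cannot be told apart.

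**Figure D2:**
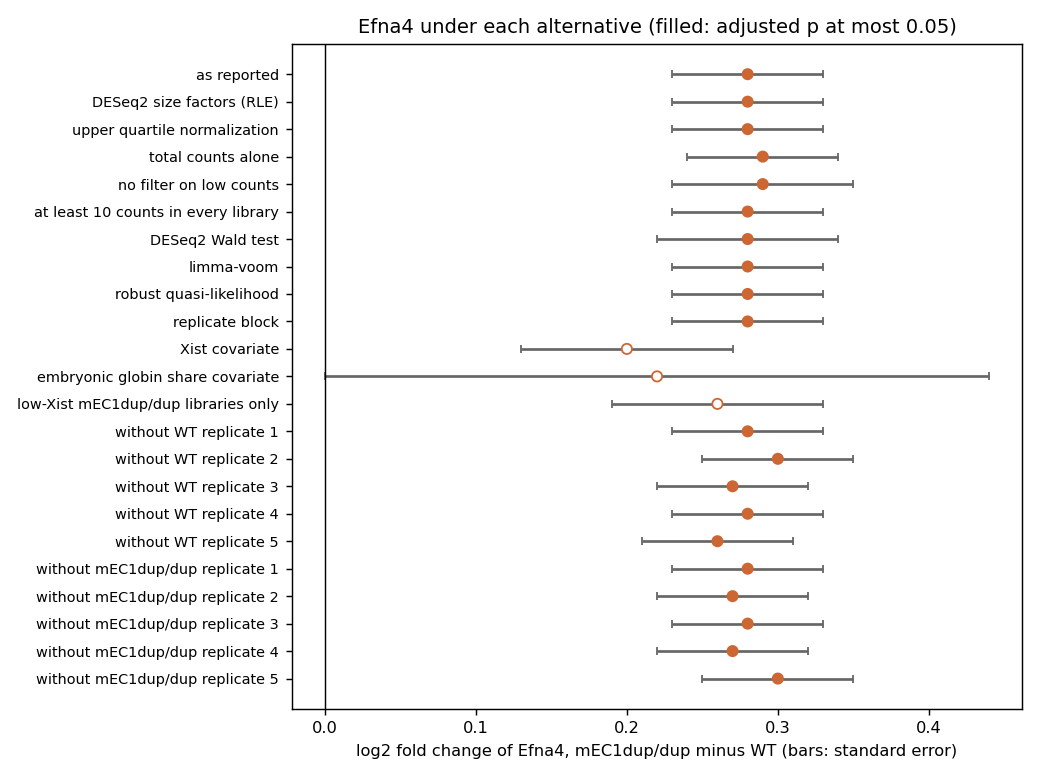
Log2 fold change of *Efna4* (mEC1dup/dup minus WT, bars show the standard error) as reported and under the alternatives that change the fit, filled where the adjusted p is at most 0.05. All values lie between 0.20 and 0.30, and the 3 open points are the *Xist* covariate, the globin covariate and the fit with the 2 low-*Xist* libraries.

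*Efna4* sits in a cluster of ephrin-A genes, and none of its neighbours was called. *Efna1* (89179037 to 89188449), *Efna3* (89221203 to 89230272) and *Efna4* follow each other on the minus strand of chromosome 3, with 32753 bases between *Efna1* and *Efna3* and 10422 bases between *Efna3* and *Efna4*. *Adam15*, a metalloprotease gene on the same strand, ends 472 bases before the start of *Efna4*, and *Slc50a1*, a sugar transporter gene, lies 1130 bases beyond the far end of *Efna1*.

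*Efna3*, the adjacent ligand gene, had 12.7, 13.9, 11.4, 13.6 and 12.5 CPM in WT and 10.4, 13.2, 10.7, 11.2 and 10.3 CPM in mEC1dup/dup. The mEC1dup/dup embryos were low except replicate 2, and the groups overlapped. The log2 fold change was -0.20 (SE 0.09, adjusted p = 0.298 in edgeR). With *Xist* as a covariate it was -0.31 (adjusted p = 0.545) and with the 2 low-*Xist* libraries -0.25 (adjusted p = 0.48). With the globin covariate it was -0.58 (adjusted p = 0.898). *Efna1*, a ligand first found as a gene induced by tumour necrosis factor in endothelial cells, ranged from 29.3 to 31.8 CPM in WT and from 28.1 to 33.9 CPM in mEC1dup/dup. Its log2 fold change was 0.01 and the 95% interval of its fold change ran from 0.926 to 1.10, so that a change of the size of that of *Efna4* lay outside it. *Adam15* had a log2 fold change of -0.09 (SE 0.06, adjusted p = 0.49) and *Slc50a1* of -0.09 (SE 0.06, adjusted p = 0.517).

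The contrast within the cluster was also read as a ratio of counts inside each library, which needs no scaling between libraries. The ratio of *Efna4* to *Efna3* was 1.97 to 2.25 in WT (mean 2.07 ± 0.114, SD, n = 5) and 2.49 to 3.12 in mEC1dup/dup (2.90 ± 0.239, SD, n = 5), a difference of 0.48 on the log2 scale. Against *Efna1* the *Efna4* ratio was 0.868 ± 0.0347 in WT and 1.05 ± 0.0826 in mEC1dup/dup, and against *Adam15* 0.584 ± 0.0267 and 0.754 ± 0.0482 (SD, n = 5 each). In these 3 ratios no mEC1dup/dup embryo overlapped a WT embryo. The ratio of *Efna3* to *Efna1*, at 0.42 ± 0.0324 and 0.365 ± 0.0593 (SD, n = 5 each), overlapped. The ratios were chosen with the fold changes known and 3 of them share *Efna4*, so they are a description, without a test.

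**Figure D3:**
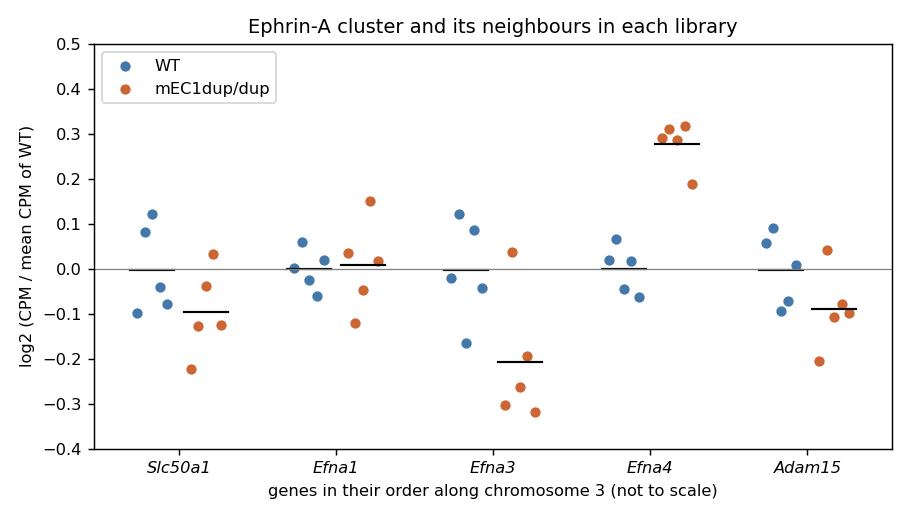
Log2 of CPM relative to the WT mean for the 3 ephrin-A genes of chromosome 3 and the genes on either side, in chromosome order (not to scale). Points are embryos and black lines are means of these log2 values. *Efna4* is the single gene of the 5 whose mEC1dup/dup embryos all lie above WT. In *Efna3*, *Adam15* and *Slc50a1* alike, 4 of the 5 mEC1dup/dup embryos lie below the WT mean.

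Reads of overlapping genes limit *Efna3* more than *Efna4*. The lncRNA *Gm15998* on the opposite strand covers 30.7% of the exonic bases of *Efna3*, and *4731419I09Rik* covers 10.3% of those of *Efna4*. Neither library kit named for these samples marks strand, so reads from such a pair cannot be told apart where they overlap. The separate rows of these lncRNAs held few counts, 0 to 5 per library for *4731419I09Rik* and 0 to 5 for *Gm15998*.

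The sequence before the start of these genes is shown for the 2 members whose windows hold the letters CAAGTG, the core of the DNA motif of HMX factors. Each window is the 300 bases upstream of the start of the canonical transcript, read from GRCm39 on the strand of the gene, 5′ to 3′, with CAAGTG in capitals. The windows are chr3:89230273-89230572 (minus strand) for *Efna3* and chr4:28812734-28813033 (plus strand) for *Epha7*.
Efna3: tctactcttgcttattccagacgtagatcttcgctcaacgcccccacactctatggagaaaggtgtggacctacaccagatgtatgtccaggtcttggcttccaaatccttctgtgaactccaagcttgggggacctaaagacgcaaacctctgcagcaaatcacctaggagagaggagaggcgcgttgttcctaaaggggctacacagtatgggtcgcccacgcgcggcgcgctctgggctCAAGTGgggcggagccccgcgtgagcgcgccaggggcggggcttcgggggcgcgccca
Epha7: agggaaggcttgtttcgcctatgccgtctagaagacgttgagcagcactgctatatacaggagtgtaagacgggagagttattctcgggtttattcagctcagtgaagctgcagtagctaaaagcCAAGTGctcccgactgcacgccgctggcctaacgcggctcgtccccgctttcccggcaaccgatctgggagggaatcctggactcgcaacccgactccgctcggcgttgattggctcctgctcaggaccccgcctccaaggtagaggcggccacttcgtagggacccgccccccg

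CAAGTG or its reverse complement CACTTG was found once in the window of *Efna3*, starting 58 bases before the transcript, and once in that of *Epha7*, starting 175 bases before it. The other 8 members had no match in this window. The share of 2 in 10 stands beside 15.1% of the 21495 windows of all protein-coding genes in the table. The GC content of the members' windows had a median of 60%, against 52.3% for all windows. A match here is a run of letters and was not tested as a binding site.

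*Efna2* encodes ephrin-A2, a ligand known for guiding retinal axons onto the midbrain. It had 65.3, 70.0, 72.7, 60.7 and 67.4 CPM in WT and 71.5, 77.5, 75.1, 77.6 and 79.5 CPM in mEC1dup/dup. The 4 highest libraries were all mEC1dup/dup, and the groups overlapped through WT replicate 3 and mEC1dup/dup replicate 1. The log2 fold change was 0.18 (SE 0.05, 95% interval 0.07 to 0.29, adjusted p = 0.0762 in edgeR), which misses the threshold. DESeq2's Wald test (adjusted p = 0.0303) and scaling to total counts alone (adjusted p = 0.0467 in edgeR) placed it past the threshold. With *Xist* as a covariate it was 0.24 (adjusted p = 0.388), with the 2 low-*Xist* libraries 0.23 (adjusted p = 0.289) and with the globin covariate 0.44 (adjusted p = 0.898).

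*Efna5* encodes ephrin-A5, which shares the guidance of retinal axons with ephrin-A2. It was at 116, 123, 128, 97.7 and 108 CPM in WT and at 138, 129, 126, 127 and 107 CPM in mEC1dup/dup. WT replicates 4 and 5 and mEC1dup/dup replicate 5 were low and the groups overlapped. The log2 fold change was 0.13 (SE 0.08, adjusted p = 0.446 in edgeR), and it was 0.076 without WT replicate 4 and -0.067 with *Xist* as a covariate. With the 2 low-*Xist* libraries it was 0.032 (adjusted p = 0.951 in edgeR) and with the globin covariate 0.35 (adjusted p = 0.913 in edgeR).

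Among the receptors, *Epha4* came nearest to a call in the fit on genotype alone. EphA4 is the member of its class that also binds ephrin-B ligands, and it is known for keeping axons and cell groups on their side of a boundary. It had 89.4, 86.9, 91.8, 71.3 and 78.9 CPM in WT and 105, 101, 100, 90.1 and 90.3 CPM in mEC1dup/dup. WT replicates 4 and 5 were low, as they were for *Efna5*, and only WT replicate 3 reached into the range of mEC1dup/dup. The log2 fold change was 0.22 (SE 0.07, 95% interval 0.07 to 0.37, adjusted p = 0.12 in edgeR). Without WT replicate 4, the library with the highest neuronal markers, it was 0.16 (adjusted p = 0.13). With *Xist* as a covariate it was 0.10 (adjusted p = 0.817), and with the 2 low-*Xist* mEC1dup/dup libraries 0.11 (adjusted p = 0.728). With the globin covariate it was 0.58 (SE 0.30, adjusted p = 0.898).

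*Epha7*, whose receptor is known in neural tube closure and cortical wiring, was at 69.9, 65.0, 63.6, 65.4 and 60.4 CPM in WT and at 66.8, 72.3, 74.1, 73.9 and 65.6 CPM in mEC1dup/dup. 3 mEC1dup/dup libraries lay above all WT libraries and the other 2 lay within their range. The log2 fold change was 0.12 (SE 0.05, adjusted p = 0.248 in edgeR), and 0.037 (adjusted p = 0.924) with *Xist* as a covariate. With the 2 low-*Xist* libraries it was 0.11 (adjusted p = 0.654 in edgeR) and with the globin covariate 0.24 (adjusted p = 0.908 in edgeR).

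*Epha3*, the receptor whose chick counterpart is restricted by HMX-family genes in the retina, had 42.1, 54.1, 46.0, 55.2 and 81.7 CPM in WT and 52.7, 58.1, 62.9, 45.1 and 72.1 CPM in mEC1dup/dup. Replicate 5 was the highest of its group in both genotypes, and the groups overlapped almost fully. The log2 fold change was 0.06 (SE 0.16, adjusted p = 0.897 in edgeR), and 0.24 without WT replicate 5. It turned to -0.027 without WT replicate 1, -0.0043 without WT replicate 3 and -0.03 without mEC1dup/dup replicate 5. With the globin covariate *Epha3* was at -1.17 (SE 0.63, adjusted p = 0.898). Its coefficient of variation in WT, 27.7%, was the largest among the 10 genes, and the 95% interval of its fold change ran from 0.816 to 1.33, so that a change of 21.4%, as in *Efna4*, was not outside what these embryos allow.

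*Epha2* is the EphA receptor best known from epithelia, where it sits at cell contacts. It ranged from 16.3 to 20.5 CPM in WT and from 14 to 18.7 CPM in mEC1dup/dup, with a log2 fold change of -0.16 (SE 0.09, adjusted p = 0.38 in edgeR). This was -0.047 with the 2 low-*Xist* libraries, and turned to 0.018 with *Xist* and to 0.64 with the globin share as a covariate. Its highest library, WT replicate 1, was also the highest in summed epithelial markers at 1550 CPM. In mEC1dup/dup, replicate 5 had the highest *Epha2* (18.7 CPM) with an epithelial sum of 751 CPM. Replicate 1 had the highest sum of that group (928 CPM) with *Epha2* at 15.5 CPM. The part of the epithelium in these values was not tested. *Epha5*, a receptor of the nervous system, was the lowest of the 10 genes with 103 to 194 counts per library. Its log2 fold change was -0.03 (SE 0.15, adjusted p = 0.95 in edgeR), with a 95% interval of its fold change from 0.777 to 1.23.

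**Figure D4:**
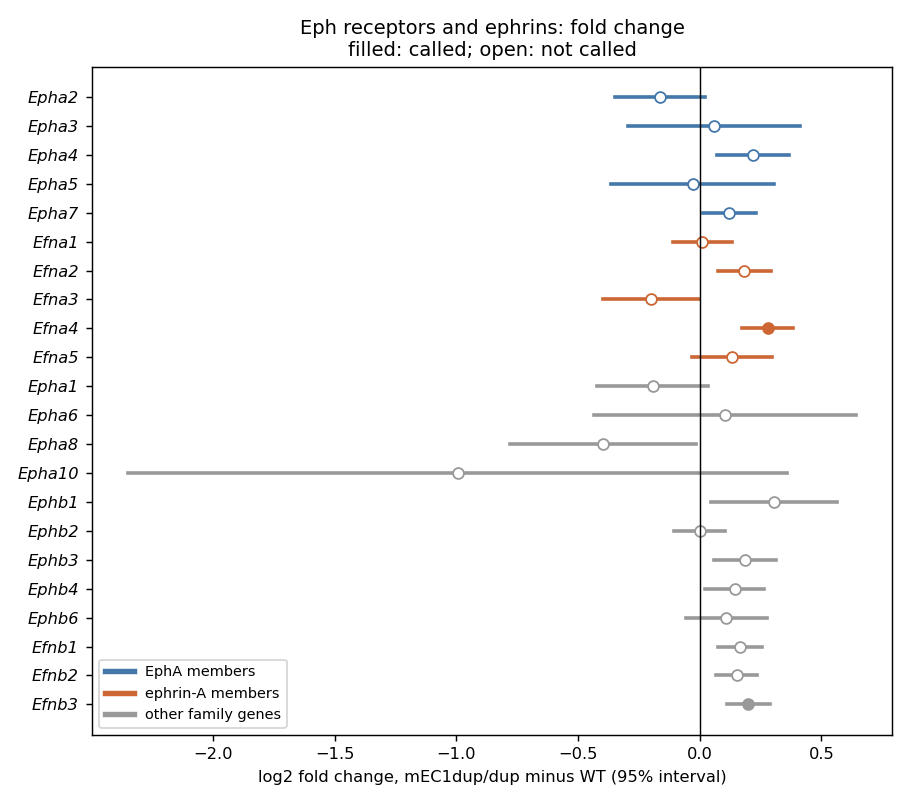
Log2 fold change (mEC1dup/dup minus WT) with its 95% interval from edgeR's quasi-likelihood fit for 22 Eph and ephrin genes. EphA members are blue, ephrin-A members orange and other family genes grey. The 2 filled points, *Efna4* and *Efnb3*, are the called genes, and 7 of the 8 ephrins lie above 0.

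Levels were compared between genes per length, as CPM per kilobase of the union of annotated exons. In WT the order was *Efna2* at 30.8 ± 2.10, *Efna5* at 21.8 ± 2.30, *Efna4* at 16.2 ± 0.585, *Epha4* at 10.1 ± 1.02 and *Efna1* at 8.90 ± 0.278 CPM per kb (SD, n = 5 each). It went on with *Epha3* at 5.89 ± 1.64, *Efna3* at 5.18 ± 0.402, *Epha7* at 5.17 ± 0.275, *Epha2* at 3.86 ± 0.324 and *Epha5* at 0.448 ± 0.104 CPM per kb (SD, n = 5 each). The ligands thus held the 3 highest places and their ranges over WT embryos did not overlap with each other or with a receptor. The neighbours *Epha4* and *Efna1*, *Efna1* and *Epha3*, *Epha3* and *Efna3*, and *Efna3* and *Epha7* overlapped between embryos and have no firm order. In mEC1dup/dup the order was the same except that *Epha7* (5.63 ± 0.321 CPM per kb) stood before *Efna3* (4.51 ± 0.478 CPM per kb), and *Efna4* reached 19.6 ± 0.686 CPM per kb (SD, n = 5 each). Using the longest coding transcript as the length kept the first 3 places and put *Efna1* before *Epha4* in WT. It also placed *Epha7* (8.82 to 10.2 CPM per kb) above *Efna3* (4.84 to 5.89 CPM per kb) with no overlap between WT embryos, so the order of this pair depends on the length used.

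**Figure D5:**
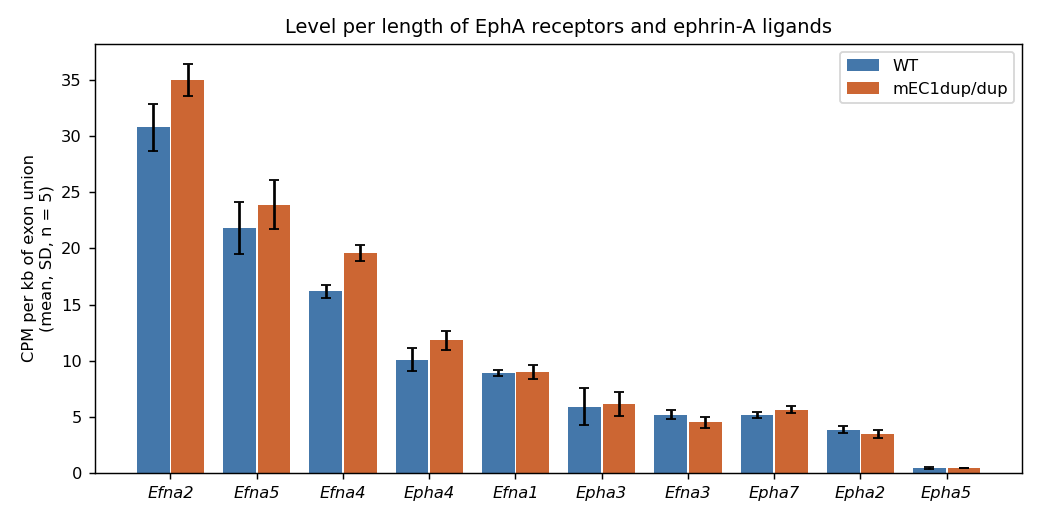
Level per length (CPM per kilobase of exon union, mean with SD, n = 5 embryos per group) of the 10 genes, ordered by their WT level. *Efna2*, *Efna5* and *Efna4* are the highest in both genotypes and *Epha5*, at 0.448 in WT and 0.438 in mEC1dup/dup, is the lowest.

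Summed over the 5 ligands, the level per length was 76.8 to 87.3 CPM per kb in WT and 88.4 to 94.3 in mEC1dup/dup, and summed over the 5 receptors it was 23.7 to 27.2 and 25.5 to 28.6. The ligand sums did not overlap between the groups and the receptor sums did. With the longest coding transcript as the length, the receptor sums were higher, 36 to 41.2 CPM per kb in WT and 38.1 to 43 in mEC1dup/dup, and the ligand sums were 82.5 to 93.5 and 94.4 to 101. Without division by length, the ligand sums were 228 to 268 CPM in WT and 258 to 284 CPM in mEC1dup/dup, and overlapped. These sums are a description, without a test. *Efna2* made up 37.2% ± 1.03 (SD, n = 5) of the ligand sum in WT and 38% ± 2.02 in mEC1dup/dup. The share of *Efna4* was 19.5% ± 1.18 and 21.3% ± 0.298, that of *Efna3* 6.27% ± 0.657 and 4.9% ± 0.447 (SD, n = 5 each), and both overlapped between the groups. *Epha4* held the largest share of the receptor sum, 39.8% ± 3.79 in WT and 43% ± 2.87 in mEC1dup/dup.

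The rest of the family was read through a list of the other Eph and ephrin genes. Of all 22 genes, 2 were called higher and none lower by edgeR, and limma-voom gave the same counts, while DESeq2 called 6 higher and none lower. Over all tested genes limma-voom called 0.724% higher and 1.68% lower, and DESeq2 1.95% higher and 3.1% lower. At an unadjusted p under 0.05 in edgeR, 10 of the 22 were higher and 2 lower, beside 7.1% and 9.08% of all tested genes. In 4 genes, *Efna4*, *Ephb4*, *Efnb1* and *Efnb2*, every mEC1dup/dup embryo lay above every WT embryo, and in none below, where 2.33% and 2.75% of all tested genes did so.

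The ephrin-B ligands, which cross the membrane and mainly bind EphB receptors, had log2 fold changes of 0.15 to 0.20. *Efnb3*, known for guiding axons at the midline, had WT libraries at 139 to 156 CPM and mEC1dup/dup libraries at 155 to 172 CPM, and rose by a log2 fold change of 0.20 (SE 0.04, adjusted p = 0.0228 in edgeR). This call was lost in 6 of the 10 fits that left out one embryo (WT replicates 1, 3 and 5 and mEC1dup/dup replicates 2, 3 and 4), with log2 fold changes of 0.19 to 0.20 and adjusted p from 0.0533 to 0.0814 in edgeR. It was also lost with *Xist* as a covariate (0.11, adjusted p = 0.607), with the globin covariate (0.13, adjusted p = 0.937) and with the 2 low-*Xist* libraries (0.16, adjusted p = 0.367). *Efnb1*, the craniofrontonasal syndrome gene, went from 222 to 253 CPM in WT to 254 to 275 CPM in mEC1dup/dup (log2 fold change 0.16, SE 0.04, adjusted p = 0.0539 in edgeR), and *Efnb2*, the arterial ephrin, from 191 to 214 CPM to 215 to 233 CPM (0.15, SE 0.04, adjusted p = 0.0596). Both missed the threshold although their groups did not overlap. DESeq2 (adjusted p = 0.00702 and 0.0105) and scaling to total counts alone (0.0437 and 0.0387) called both. With *Xist* as a covariate *Efnb1* was at 0.20 (adjusted p = 0.366) and *Efnb2* at 0.091 (adjusted p = 0.678), with the 2 low-*Xist* libraries they were at 0.19 (adjusted p = 0.278) and 0.13 (adjusted p = 0.451), and the globin covariate turned *Efnb1* to -0.041.

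None of the 9 other Eph receptors was called by edgeR. *Ephb4*, the venous receptor of ephrin-B2, was at 293 to 371 CPM in WT and at 378 to 391 CPM in mEC1dup/dup. Its log2 fold change was 0.14 (SE 0.06, adjusted p = 0.224), or 0.082 (adjusted p = 0.153) without WT replicate 4. With the globin covariate it was 0.46 (SE 0.24, adjusted p = 0.898). The log2 fold changes of *Ephb3* and *Ephb2* were 0.19 (adjusted p = 0.119) and 0.00 (adjusted p = 0.995). *Ephb1*, *Ephb3*, *Ephb4* and *Epha8* had an unadjusted p under 0.05, and DESeq2 called *Ephb3* among them. *Epha8* was lower, with a log2 fold change of -0.40 (adjusted p = 0.285 in edgeR).

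A list of 33 genes held effectors and regulators of Eph receptors, the ligand sheddase gene *Adam10* and the ephrin-A co-receptor genes *Ngfr* and *Ret*, with 1 gene called lower, *Vav3*, and none called higher by edgeR. At an unadjusted p under 0.05, 3 of its genes were higher and 2 lower, shares near the 7.1% and 9.08% of all tested genes. DESeq2 called 1 higher and 2 lower, beside 1.95% and 3.1% of all tested genes, and the median log2 fold change was -0.02. *Vav3*, an exchange factor that binds activated Eph receptors, fell by 0.41 on the log2 scale (SE 0.10, adjusted p = 0.0441 in edgeR), from 38.6 ± 2.94 to 29.1 ± 4.89 CPM (SD, n = 5 each). The groups overlapped, and the call was lost in 8 of the 10 fits that left out one embryo, all but those without WT replicate 4 or mEC1dup/dup replicate 1, with log2 fold changes of -0.43 to -0.36 and adjusted p from 0.0642 to 0.123 in edgeR. It was also lost with *Xist* as a covariate (-0.65, adjusted p = 0.217), with the globin covariate (-0.23, adjusted p = 0.952) and with the 2 low-*Xist* libraries (-0.58, adjusted p = 0.118). *Rock2*, a kinase activated by RhoA, was at -0.20 on the log2 scale (adjusted p = 0.0662), with every mEC1dup/dup embryo below WT. The adaptor gene *Crkl* (0.14, adjusted p = 0.0618) and the kinase gene *Src* (0.08, adjusted p = 0.224) lay above WT in every embryo. Such separation was found in 2.75% of all tested genes below and 2.33% above WT. DESeq2 called *Rock2* (adjusted p = 0.021) and *Crkl* (adjusted p = 0.0195). In edgeR, leaving out WT replicate 4 called *Rock2* (adjusted p = 0.0352) and scaling to total counts alone called *Crkl* (adjusted p = 0.0437). With the globin covariate *Rock2* was at -0.0016, *Crkl* at 0.12 and *Src* at 0.23, none of them called. With the 2 low-*Xist* libraries *Rock2* was at -0.23 and *Crkl* at 0.087. *Adam10*, whose protease cleaves ephrin-A ligands from the cell surface, was at 169 to 195 CPM in WT and 165 to 183 CPM in mEC1dup/dup, a log2 fold change of -0.04 (adjusted p = 0.726). *Rhoa*, *Rac1* and *Cdc42*, which encode the GTPases that carry Eph signals to the cytoskeleton, had log2 fold changes between -0.03 and -0.01 with SEs of 0.03 to 0.04.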

How the data were processed

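Gene counts from pinna prominences of 5 WT and 5 mEC1dup/dup embryos were analysed. The authors used fastp for trimming, STAR for alignment against GRCm39 and featureCounts for the count per gene, and deposited raw counts with no normalization. The annotation release, the strand setting and the treatment of reads with several matches are not given in the sources used here, and the labels and the paper name different poly(A) library kits. Each column was assigned to an embryo through its label.

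The 10 genes, the lists and the alternatives were chosen with earlier results of these data known. Symbols, positions and exon lengths came from GENCODE release M39 of GRCm39, which matched 49355 of 53465 identifiers. Genes passing edgeR's filterByExpr by genotype were scaled by TMM and fitted with edgeR version 4.0.16 (glmQLFit, glmQLFTest) under R 4.3.3 in a model holding genotype alone. Adjustment ran over all 16426 tested genes, and calls required an adjusted p up to 0.05 and a mean log2 CPM no lower than 1. The standard error is the size of the log2 fold change divided by the square root of F. Log2 CPM of single libraries used a prior count of 2. All 10 members, the called or non-overlapping genes of the lists, and the neighbours of the ephrin-A cluster were named by rule; *Epha8*, *Ephb1*, *Ephb2*, *Ephb3*, *Adam10*, *Ngfr*, *Ret*, *Rhoa*, *Rac1* and *Cdc42* were added after their values were seen. Alternatives were the size factors and Wald test of DESeq2 (version 1.42.0), limma-voom (version 3.58.1), other scalings, filters, thresholds and covariates, the replicate block, and each embryo left out. The fit was tested on simulated data in which 200 genes changed by 1 in size on the log2 scale. It recovered 93% of them, with 4 false calls. Changes as small as those of the 10 genes were not simulated. Promoter sequences of the 8 members without a CAAGTG match are not reported here.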

Additional observations from a re-analysis of the deposited data

Results flagged for a closer look

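In mEC1dup/dup replicate 5 *Efna4* was at 30.2 CPM, apart from the other 4 mEC1dup/dup embryos at 32.3 to 33.0 CPM by more than Dixon's critical value for 5 samples (0.71). This was 1 of 22 groups examined (the 10 genes and *Hmx1* in each genotype), and chance alone marks about 1 in 20. The replicate was still above every WT embryo, and without it the log2 fold change of *Efna4* was 0.30 (adjusted p = 0.0129 in edgeR).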

How the results depend on the processing

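The 10 genes gave 240 values under 24 alternatives, of which 217 kept their direction and their side of the threshold. Scaling to total counts alone called 2 members (*Efna2* added, 0.19) and 5 other family and pathway genes. DESeq2 called 321 genes higher and 510 lower, 2 members (*Efna2*, 0.18) and 7 other family and pathway genes, against 137, 297, 1 and 2 in the edgeR fit. At an adjusted p of at most 0.01, 16 genes were higher and 62 lower, and 0 members (*Efna4*, 0.28, adjusted p = 0.0113) and 0 other family and pathway genes were left. The *Xist* covariate left 2 genes higher and 1 lower, 0 members (*Efna4* 0.20) and 0 other family and pathway genes, and turned *Epha2* to 0.018, *Epha5* to 0.10 and *Efna5* to -0.067. The embryonic globin covariate left 0 genes of any kind (*Efna4* 0.22), and turned *Epha2* to 0.64, *Epha3* to -1.17 and *Efnb1* to -0.041. With the 2 low-*Xist* mEC1dup/dup libraries, 1 gene was higher and 0 lower, 0 members (*Efna4* 0.26) and 0 others were called, and *Epha5* was 0.023, and limma-voom put *Epha5* at 0.0034. This last comparison has fewer samples, and otherwise the cause was not tested.

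With the replicate number as a block (a paired fit), 487 genes were lower, 2 members were called (*Epha4* added, 0.22, adjusted p = 0.0122; *Efna4* 0.28, adjusted p = 0.0141) and 7 other family and pathway genes. The embryos were siblings from separate litters, but no source used here says that a number marks a litter. Deviations of same-numbered libraries correlated between -0.0558 and 0.345 (mean 0.162, against -0.0403 for other pairs), and 2 of 5 WT libraries correlated best with their own number.

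Leaving out one embryo gave 34 to 179 genes higher, 120 to 476 lower and 0 to 3 other family and pathway genes. Against 434 genes called in all, there were 220 without WT replicate 1, 220 without WT replicate 2, 260 without WT replicate 3, 178 without mEC1dup/dup replicate 2, 154 without mEC1dup/dup replicate 3 and 243 without mEC1dup/dup replicate 4, and 655 without WT replicate 4. *Epha3* ranged from -0.03 to 0.24, *Epha5* from -0.16 to 0.033 and *Efna1* from -0.027 to 0.042, each around 0. With a prior count of 0.5, no member's mean difference moved by more than the spread between WT embryos. Depth limits *Epha5* most, at 103 to 194 counts per library.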
